A study of Mus musculus with 564 samples.

Results

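The dual-specificity MAPK phosphatase genes Dusp1, Dusp2, Dusp4, Dusp5, Dusp6, Dusp7, Dusp8, Dusp10 and Dusp16 were followed through acetylation of lysine 27 of histone H3 (H3K27ac), found at active promoters and enhancers, in mouse bone marrow-derived macrophages. A cis-regulatory element (CRE) was assigned to a member gene when its centre lay within 25 kb of a RefSeq transcription start of that gene in the mouse build mm10, and no measured value entered this choice. The assignment gave 48 of the 59190 CREs, of which 6 belonged to Dusp1, 6 to Dusp2, 3 to Dusp4, 6 to Dusp5, 6 to Dusp6, 10 to Dusp7, 5 to Dusp8, 2 to Dusp10 and 4 to Dusp16. Each CRE is named by its gene and the distance of its centre from the start in kb, with a minus sign for upstream and a plus sign for downstream, so that Dusp6+6.4 lies 6.4 kb downstream of the Dusp6 start. The start of another protein-coding gene was nearer for 4 of the 48, namely Dusp2+2.6, Dusp2+5.2 and Dusp2+10.4 by Astl and Dusp10-0.3 by 1700056E22Rik. Starts of curated transcripts were used, and 2 further CREs that lie within 25 kb of predicted starts only were not counted.

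Mitogen-activated protein kinases (MAPKs) are switched on by phosphorylation of a threonine and a tyrosine in their activation loop, and the dual-specificity phosphatases switch them off by removing both phosphates. Dusp1, Dusp2, Dusp4 and Dusp5 encode inducible nuclear enzymes, Dusp6 and Dusp7 encode cytoplasmic enzymes that prefer ERK, and Dusp8, Dusp10 and Dusp16 encode enzymes that prefer JNK and p38. In macrophages, ligands of Toll-like receptors activate ERK, JNK and p38 and induce Dusp1, which limits cytokine output, whereas Dusp6 is a classical feedback gene of the MEK and ERK cascade.

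The cells were wild type macrophages differentiated from bone marrow of male C57/BL6 mice, pre-treated for 1 h with the vehicle DMSO or a clinical kinase inhibitor (CKI), of which there were 58. They then received no stimulus (UT) or were exposed for 30 min, 1 h, 2 h or 4 h to 10 ng/mL of lipopolysaccharide (LPS), a ligand of the Toll-like receptor TLR4, or to 10 ng/mL of interleukin-4 (IL-4), a cytokine that acts through STAT6. H3K27ac ChIP-seq gave 564 libraries, 75 UT, 249 after LPS and 240 after IL-4, of which 18 were DMSO libraries in 9 groups of 2 replicates and 546 were CKI libraries, mostly 1 per compound, stimulus and time. Labels do not say that replicates came from separate cultures, so p-values measure the spread between these libraries, which may be technical. Each CKI was used at a concentration set for its own target, so doses were not matched between compounds. The allosteric MEK inhibitors Pimasertib, Refametinib and Selumetinib, the ERK inhibitors GDC0994 and Ulixertinib and the p38 inhibitors Losmapimod, PH797804, Talmapimod and VX702 received most attention here, because these kinases are substrates of the member phosphatases or activate those substrates.

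Values are normalised read counts per CRE as the authors scaled and rounded them. From the spacing of the values, reads in CREs were estimated at 2346043 to 5408907 in the DMSO libraries (16 of 18 libraries could be estimated), 172151 to 6581857 in those of the 9 MEK, ERK and p38 inhibitors (77 of 81) and 469465 to 5952623 in those of the other 49 CKIs (452 of 465). The lowest of these was the library of PH797804 at 30 min of LPS, in which 1 read was worth 23.6 units. The contrast of a library, taken as the mean value of the strongest 10% of CREs over that of the weakest 10%, was 53.9 to 96.2 in DMSO libraries and 7.50 to 64.3 in the 81 libraries of the 9 inhibitors. Promoter CREs of 8 of 8 macrophage marker genes were present, with a summed value of 1327 to 2080 per kb over the DMSO libraries, whereas none of the 4 B cell, 4 T cell and 3 mast cell markers had a promoter CRE, and 1 of 6 neutrophil markers (0.6 to 98.6 per kb), 1 of 4 fibroblast markers (1.1 to 62.0 per kb) and 1 of 3 dendritic cell markers (3.1 to 19.1 per kb) had one. Whether cells of these types contributed to the member CREs was not tested.

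Promoter sequences were read from RefSeq on GRCm38.p6, the patched form of mm10, in which 8 of the 9 genes were matched (all but Dusp4). The 250 bases before the start are shown for the genes whose promoter CREs carry the results below, since they show which classical response motifs lie at the start. Capitals mark a CREB motif in Dusp1 and Dusp8 and serum response elements in Dusp5. In Dusp2 and Dusp6 no searched motif was found. All are printed 5′ to 3′ on the strand of the gene.

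Dusp1 promoter (chr17:26508473-26508722, minus strand): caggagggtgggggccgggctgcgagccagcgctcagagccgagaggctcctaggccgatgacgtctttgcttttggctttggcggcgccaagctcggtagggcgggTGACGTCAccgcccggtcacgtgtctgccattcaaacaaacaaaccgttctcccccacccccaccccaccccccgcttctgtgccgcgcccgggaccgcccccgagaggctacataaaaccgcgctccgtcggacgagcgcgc
Dusp2 promoter (chr2:127335909-127336158, plus strand): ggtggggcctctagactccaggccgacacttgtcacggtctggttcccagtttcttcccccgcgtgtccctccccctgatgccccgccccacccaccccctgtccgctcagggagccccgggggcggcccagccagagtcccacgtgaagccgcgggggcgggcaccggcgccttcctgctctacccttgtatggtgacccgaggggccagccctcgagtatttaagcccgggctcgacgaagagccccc
Dusp5 promoter (chr19:53528895-53529144, plus strand): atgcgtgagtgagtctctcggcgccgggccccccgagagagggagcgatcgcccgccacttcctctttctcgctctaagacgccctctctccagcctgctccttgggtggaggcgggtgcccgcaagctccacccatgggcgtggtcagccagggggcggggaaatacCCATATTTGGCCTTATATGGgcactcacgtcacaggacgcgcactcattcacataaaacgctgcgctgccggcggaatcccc
Dusp6 promoter (chr10:99262981-99263230, plus strand): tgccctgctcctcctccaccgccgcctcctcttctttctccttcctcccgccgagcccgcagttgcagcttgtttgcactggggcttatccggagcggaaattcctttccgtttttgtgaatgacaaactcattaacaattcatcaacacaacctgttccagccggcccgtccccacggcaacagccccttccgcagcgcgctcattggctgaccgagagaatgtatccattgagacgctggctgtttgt
Dusp8 promoter (chr7:142095285-142095534, minus strand): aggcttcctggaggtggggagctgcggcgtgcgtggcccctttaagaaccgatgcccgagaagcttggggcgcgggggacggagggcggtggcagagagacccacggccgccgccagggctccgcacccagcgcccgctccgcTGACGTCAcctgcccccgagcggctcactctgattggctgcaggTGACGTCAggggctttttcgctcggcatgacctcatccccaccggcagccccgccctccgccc

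The CREB motif TGACGTCA, searched on both strands, was found in the promoters of Dusp1 and Dusp8, and 1.55% of all 32851 promoters of that length hold it. The Dusp5 promoter held 2 adjacent serum response elements, the site of the serum response factor, which 1.47% of promoters hold. The AP-1 motif TGANTCA, the ETS motif CCGGAAG, the STAT6 motif TTCNNNNGAA and the NF-kB motif, searched by name, were found in none of the 8 promoters, and 6.75%, 6.91%, 5.85% and 7.25% of all promoters hold them. No motif was contained in another.

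The central 200 bases of 5 distal CREs are shown as well, on the plus strand, picked among CREs that changed strongly after LPS. Capitals mark the AP-1 motif TGANTCA, and in Dusp16-1.8 and Dusp6+2.2 no searched motif was found. Dusp1-10.0, which also changed strongly, held no searched motif and is not shown.

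Dusp5-17.3 (chr19:53511743-53511942, plus strand): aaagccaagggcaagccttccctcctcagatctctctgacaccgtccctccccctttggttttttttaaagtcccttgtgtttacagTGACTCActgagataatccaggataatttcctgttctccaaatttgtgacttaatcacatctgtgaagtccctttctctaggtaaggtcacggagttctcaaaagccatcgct
Dusp2-22.1 (chr2:127313961-127314160, plus strand): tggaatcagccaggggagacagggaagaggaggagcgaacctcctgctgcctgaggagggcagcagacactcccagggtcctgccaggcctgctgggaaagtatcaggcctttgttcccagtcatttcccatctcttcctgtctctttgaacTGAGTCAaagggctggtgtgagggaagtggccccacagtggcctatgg
Dusp7+9.6 (chr9:106378134-106378333, plus strand): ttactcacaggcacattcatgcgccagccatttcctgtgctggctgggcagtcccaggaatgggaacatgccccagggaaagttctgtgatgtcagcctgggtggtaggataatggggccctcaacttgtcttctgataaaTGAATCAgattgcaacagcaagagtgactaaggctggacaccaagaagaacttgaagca
Dusp16-1.8 (chr6:134794298-134794497, plus strand): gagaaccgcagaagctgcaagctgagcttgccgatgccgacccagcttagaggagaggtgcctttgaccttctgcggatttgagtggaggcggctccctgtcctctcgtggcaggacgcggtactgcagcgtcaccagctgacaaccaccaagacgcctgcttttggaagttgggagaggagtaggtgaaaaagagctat
Dusp6+2.2 (chr10:99265369-99265568, plus strand): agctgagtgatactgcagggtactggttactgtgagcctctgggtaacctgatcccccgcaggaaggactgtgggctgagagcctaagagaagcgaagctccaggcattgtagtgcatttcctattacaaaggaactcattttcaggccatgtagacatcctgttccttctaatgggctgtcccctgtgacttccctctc

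AP-1 motifs lay in the centre of 12 of the 48 member CREs, against 17.3% of all 59190 CREs, with 4 at Dusp7, 3 at Dusp5, 3 at Dusp2, 1 at Dusp6 and 1 at Dusp8. The NF-kB motif was in 4 member CREs (Dusp10+14.9, Dusp1+10.8, Dusp2+5.2 and Dusp16+0.5) against 6.7% of all, the CREB motif in Dusp8-0.1 against 0.689%, and the serum response element in Dusp5-0.1 against 1.0%. No member centre held the ETS motif (3.38% of all) or the STAT6 motif (6.52% of all). Such matches describe these windows and are not evidence of binding.

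Before stimulation, the promoter CREs of the 9 genes covered a wide range of acetylation. Compared per kb of CRE and given as the mean of the UT DMSO libraries (SD, n = 2), Dusp6 stood highest at 283 ± 27.5 per kb, a level above the DMSO mean of 99.7% of all CREs. It was followed by Dusp7 at 147 ± 4.04 and Dusp1 at 127 ± 1.64 per kb, then Dusp10 at 95.7 ± 0.95 per kb. Dusp4 at 68.7 ± 8.53, Dusp16 at 64.4 ± 3.58 and Dusp5 at 60.2 ± 0.79 per kb lay close together. Dusp2 at 21.8 ± 1.12 and Dusp8 at 17.5 ± 1.3 per kb were lowest, with 45.6% and 39.5% of all CREs below them. Per kb, the promoter CREs of the cytoplasmic ERK phosphatase genes were thus the most acetylated before stimulation. Replicates of Dusp4 and Dusp16 overlapped, and those of every other pair of neighbours in this order did not. The gap from Dusp16 to Dusp5 was about as large as the spread of Dusp16. Not divided by width, the UT mean was 1036.5 at the promoter CRE of Dusp1, 1025.5 at that of Dusp6 and 437.5 at that of Dusp7.

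**Figure D1:**
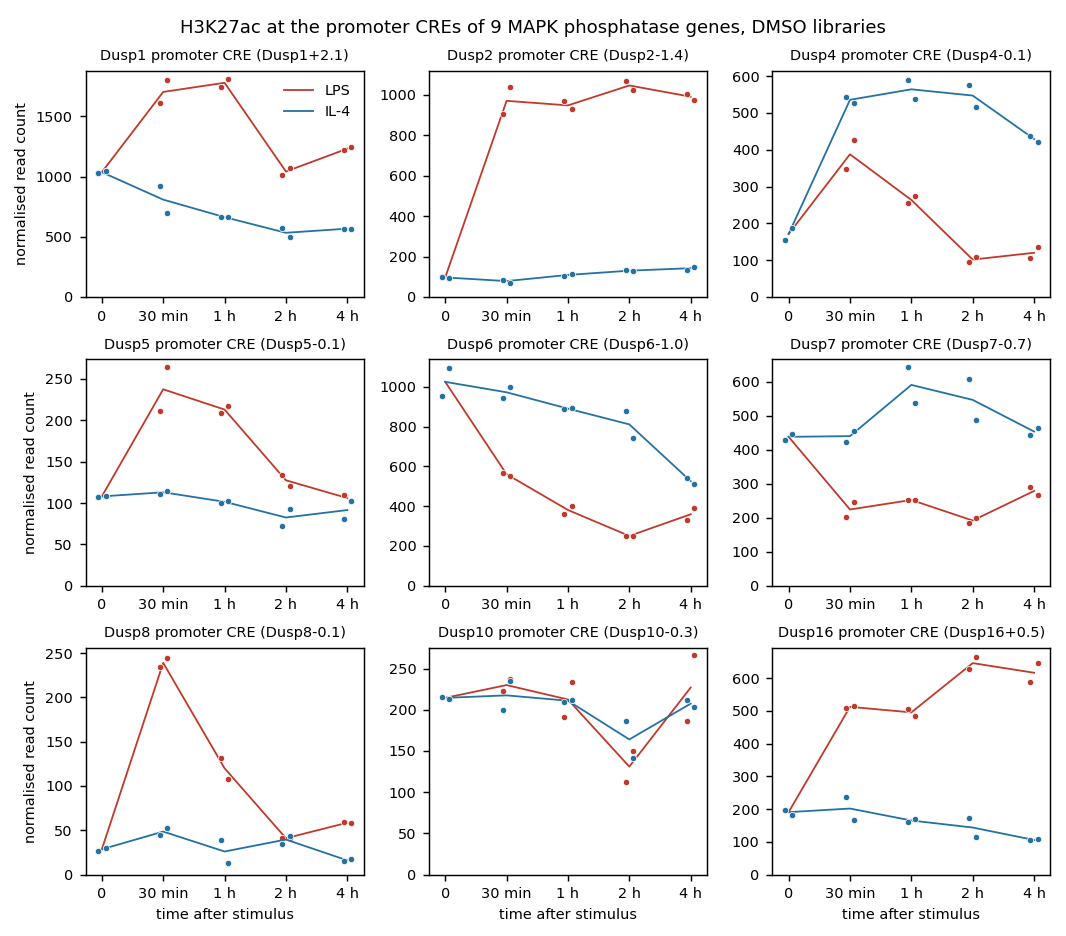
Normalised read counts at the promoter CREs of the 9 phosphatase genes (vertical axes) against time after the stimulus (horizontal axes) in DMSO-treated macrophages, with LPS in red and IL-4 in blue; points are libraries and lines join the means of 2 replicates. Dusp2 rises from 93 to 100 at the start to between 904 and 1070 after LPS, Dusp6 falls from 955 to 1096 to between 250 and 569, and Dusp4 is above both its start and its LPS libraries at every time after IL-4.

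How the phosphatase genes respond to LPS was asked first, in the 10 DMSO libraries of that time course. H3K27ac rose at CREs of Dusp1, Dusp2, Dusp5, Dusp8 and Dusp16, fell around Dusp6 and at most called CREs of Dusp7, and moved both ways at Dusp4. Of the 44 member CREs whose values averaged 10 or more, 34 changed (limma F-test, adjusted p under 0.01 with a log2 difference beyond 1 in size at some time), 21 of them higher and 13 lower at their largest difference. Over all CREs tested, 53.5% changed by the same rule, 29.0% higher and 24.6% lower. The median of the largest absolute log2 difference was 1.63 over the members and 1.19 over all CREs. Among promoter CREs, 7 of the 9 members changed, against 29.2% of all promoter CREs, with Dusp2, Dusp4, Dusp5, Dusp8 and Dusp16 higher and Dusp6 and Dusp7 lower. The 4 member CREs too low to be tested were Dusp2+10.4, Dusp8+10.2, Dusp8-2.8 and Dusp8-9.9.

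Timing separated the members. The median log2 difference over the members was 0.86 at 30 min and 0.93 at 1 h but 0.06 at 2 h and 0.21 at 4 h, while the median over all CREs stayed between 0.02 and 0.09. Member CREs that were more than 1 log2 unit higher numbered 20 at 30 min, 21 at 1 h, 13 at 2 h and 14 at 4 h, and those more than 1 log2 unit lower numbered 3, 5, 12 and 9. Among the members, gains thus came first and losses were most numerous at 2 h. Matching counts over all CREs are not given here, so this timing is not shown to be particular to the members.

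Dusp1 encodes the nuclear phosphatase that removes phosphate from p38 and JNK, and 4 of its 6 CREs rose after LPS. The CRE over the gene itself, Dusp1+2.1 (chr17:26502262-26510438, centred on a coding exon and covering the start), had values of 1027 and 1046 in the UT replicates, 1607 and 1799 at 30 min, 1744 and 1814 at 1 h, 1013 and 1071 at 2 h, and 1220 and 1243 at 4 h. All 4 libraries of the first hour were above both UT libraries, the 2 h libraries straddled them, and the largest log2 difference of 0.78 (SE 0.083, at 1 h) missed the required size. At the intergenic CRE Dusp1-10.0 (chr17:26517576-26519362), the UT values of 48 and 49 became 137 and 169 at 30 min, 441 and 478 at 1 h, 406 and 528 at 2 h, and 628 and 471 at 4 h. Every stimulated library was above UT and the gain was kept to 4 h, with a log2 difference of 3.36 (SE 0.16, adjusted p = 9.1e-20). The upstream CRE Dusp1-5.3 (chr17:26511793-26515735) rose by 1.27 on the log2 scale at 1 h (SE 0.095), Dusp1-24.4 by 1.27 at 30 min (SE 0.076), and Dusp1+23.6 by 2.82 at 30 min (SE 0.28), from 10 and 12 to 89 and 130. Dusp1+10.8, 10.8 kb downstream of the start, went from 418 and 456 to 797 and 958 at 30 min, a log2 difference of 0.99 (SE 0.12) that stayed just below the required size.

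Dusp2 encodes a nuclear phosphatase of activated leukocytes, and all 5 of its tested CREs rose after LPS. At its promoter CRE, Dusp2-1.4 (chr2:127332538-127336956), the UT values were 100 and 93, and the LPS values were 904 and 1037 at 30 min, 968 and 928 at 1 h, 1070 and 1023 at 2 h, and 1006 and 976 at 4 h. The gain was complete at 30 min and flat afterwards, with log2 differences of 3.26, 3.23, 3.37 and 3.30 (SE 0.11). At Dusp2-12.4 the values climbed more slowly, from 66 and 85 through 381 and 471 at 30 min and 733 and 830 at 1 h to 1196 and 1273 at 2 h. The far upstream CRE Dusp2-22.1 (chr2:127313241-127314881), whose AP-1 motif is printed above, was at 5 and 9 in UT and reached 207 and 236 at 2 h, the largest gain among the 44 tested members at 4.26 on the log2 scale (SE 0.22). Dusp2+2.6 and Dusp2+5.2 rose by 3.06 and 2.84 at 4 h, but both lie nearer the start of Astl.

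Dusp4, a nuclear phosphatase of ERK and JNK, changed in both directions. Its promoter CRE, Dusp4-0.1 (chr8:34806279-34808766), rose from 156 and 186 to 348 and 427 at 30 min and then dropped to 95 and 108 at 2 h and 105 and 135 at 4 h. All 4 late libraries lay below both UT libraries and both early ones above, with log2 differences of 1.16 at 30 min and -0.72 at 2 h (SE 0.17). Dusp4+9.0, centred on a coding exon, followed it and fell by 1.16 on the log2 scale at 4 h (SE 0.18). The call for Dusp4+3.8 was the least secure of the gene, since its 1.21 at 1 h (SE 0.33) was lost when replicate 2 of UT or of 2 h, or either 1 h replicate, was left out (adjusted p 0.013 to 0.017).

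Dusp5, the ERK-specific nuclear phosphatase, showed a brief gain. Its promoter CRE, Dusp5-0.1 (chr19:53528129-53529923), which holds the adjacent serum response elements, went from 107 and 109 to 211 and 264 at 30 min, 209 and 217 at 1 h, 134 and 121 at 2 h and 110 and 102 at 4 h. Both early times stood clear of UT and the 4 h values were back at the start, with a log2 difference of 1.09 at 30 min (SE 0.17). Without replicate 2 at 30 min this difference was 0.93 and no longer passed. The upstream CREs were steeper and as short-lived, since Dusp5-17.3 (chr19:53511022-53512664) had values of 12 and 7 in UT, 91 and 111 at 30 min, 55 and 82 at 1 h, 26 and 22 at 2 h and 8 and 15 at 4 h, a log2 difference of 2.89 at 30 min (SE 0.32) that shrank to 0.17 at 4 h. Dusp5-12.7 rose by 2.44 at 30 min (SE 0.25). Within the gene, Dusp5+6.5 peaked later, at 1.78 at 2 h (SE 0.17). Further downstream, Dusp5+23.8 rose by 1.12 at 1 h and stood at a log2 difference of -1.26 at 4 h (SE 0.32), for which it was counted as lower.

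Around Dusp6, the ERK phosphatase of the cytoplasm, 5 of 6 CREs fell. The promoter CRE Dusp6-1.0 (chr10:99260458-99264082) had values of 955 and 1096 in UT, 569 and 553 at 30 min, 360 and 402 at 1 h, 250 and 251 at 2 h and 329 and 390 at 4 h. No LPS library reached either UT library, and the loss was deepest at 2 h, with a log2 difference of -2.01 (SE 0.12, adjusted p = 1.5e-15). Loss was steeper at the downstream CRE Dusp6+6.4 (chr10:99267793-99271416), where UT values of 408 and 375 became 28 and 48 within 30 min, 26 and 16 at 1 h, 32 and 34 at 2 h and 54 and 67 at 4 h. Its log2 difference of -3.96 at 1 h (SE 0.26) was the largest loss among the tested members. In the intron, Dusp6+2.2 (chr10:99264693-99266246) went from 358 and 399 to 79 and 82 at 30 min and stayed between 51 and 58 from 1 h on, a log2 difference of -2.72 at 2 h (SE 0.21). Upstream, Dusp6-20.9 fell by 2.85 and Dusp6-15.6 fell by 1.55 at 2 h, the time at which Dusp6-1.0 and Dusp6+2.2 were lowest as well, and Dusp6-11.5 had log2 differences of 0.93 at 30 min and -0.93 at 2 h without passing. The CRE in the intron and the one downstream had therefore lost most of their acetylation at a time when the promoter still held 569 and 553 of its units.

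Dusp7, the other cytoplasmic ERK phosphatase, lost acetylation at 6 of 10 CREs and gained it at 1. Its promoter CRE, Dusp7-0.7 (chr9:106366398-106369376), went from 429 and 446 to 201 and 247 at 30 min, 251 and 253 at 1 h, 185 and 198 at 2 h and 289 and 268 at 4 h, with all LPS libraries below UT and a log2 difference of -1.17 at 2 h (SE 0.14). Dusp7-3.1 fell by 2.40 at 2 h (SE 0.27) and Dusp7-14.7 fell by 1.88 (SE 0.16). In contrast, the downstream CRE Dusp7+9.6 (chr9:106377390-106379078) rose from 33 and 29 to 236 and 241 at 30 min and 267 and 293 at 4 h, and no LPS library overlapped UT (log2 difference 2.99 at 4 h, SE 0.17). Single elements near 1 gene thus moved in opposite directions.

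**Figure D2:**
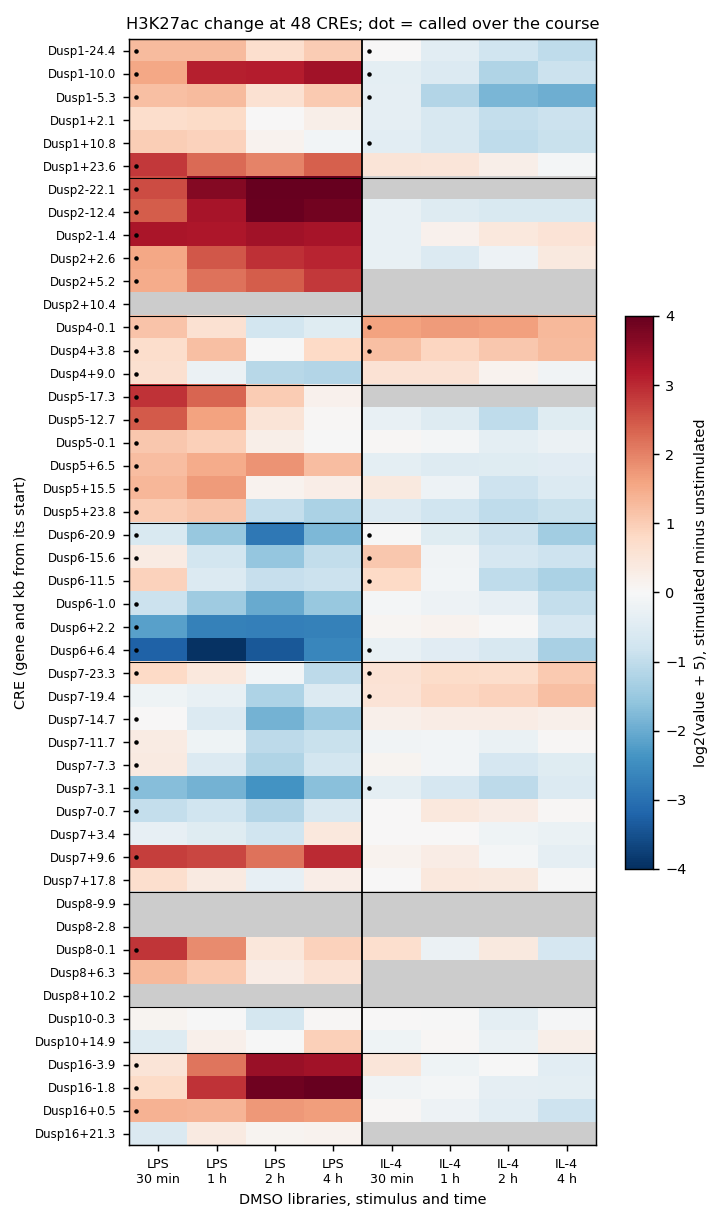
Log2 difference of H3K27ac from unstimulated cells at the 48 member CREs (rows, by gene and distance in kb) over 4 times after LPS and 4 after IL-4 (columns) in DMSO-treated macrophages; red is higher, blue is lower, grey was not tested, and a dot marks CREs that changed over that time course. The Dusp2 rows are red after LPS up to 4.26, the Dusp6 rows are mostly blue, down to -3.96, and dots are fewer in the IL-4 columns, with 13 CREs against 34 after LPS.

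The JNK and p38 phosphatases differed from each other. Dusp8-0.1 (chr7:142094529-142096159), the promoter CRE with 2 CREB motifs, had 27 and 30 in UT, 234 and 244 at 30 min, 132 and 108 at 1 h, 41 and 41 at 2 h and 59 and 58 at 4 h. All LPS libraries were above UT, and the gain of 2.87 at 30 min (SE 0.22) had shrunk to 0.46 at 2 h. At Dusp10, neither CRE changed by the rule, since Dusp10-0.3 (chr1:184032942-184035182) had UT values of 216 and 213 and its lowest pair was 112 and 150 at 2 h, a log2 difference of -0.70 (SE 0.18). Dusp10+14.9 was 0.95 higher at 4 h (SE 0.28), below the required size.

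At Dusp16, 3 of 4 CREs rose and stayed high. The promoter CRE Dusp16+0.5 (chr6:134790623-134793582) went from 198 and 183 to 508 and 516 at 30 min, 506 and 484 at 1 h, 628 and 663 at 2 h and 587 and 645 at 4 h, a log2 difference of 1.73 at 2 h (SE 0.12) with no overlap with UT. The neighbouring upstream CRE Dusp16-1.8 (chr6:134793601-134795196), which lies in an intron of a longer predicted Dusp16 transcript only, started at 18 and 13 and was at 23 and 37 at 30 min, 144 and 146 at 1 h, 311 and 285 at 2 h and 371 and 286 at 4 h. Its gain of 4.02 (SE 0.22) came later than that of the promoter beside it. Dusp16-3.9, over an exon of the non-coding gene 1700055D16Rik, rose by 3.45 at 2 h (SE 0.18).

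**Figure D3:**
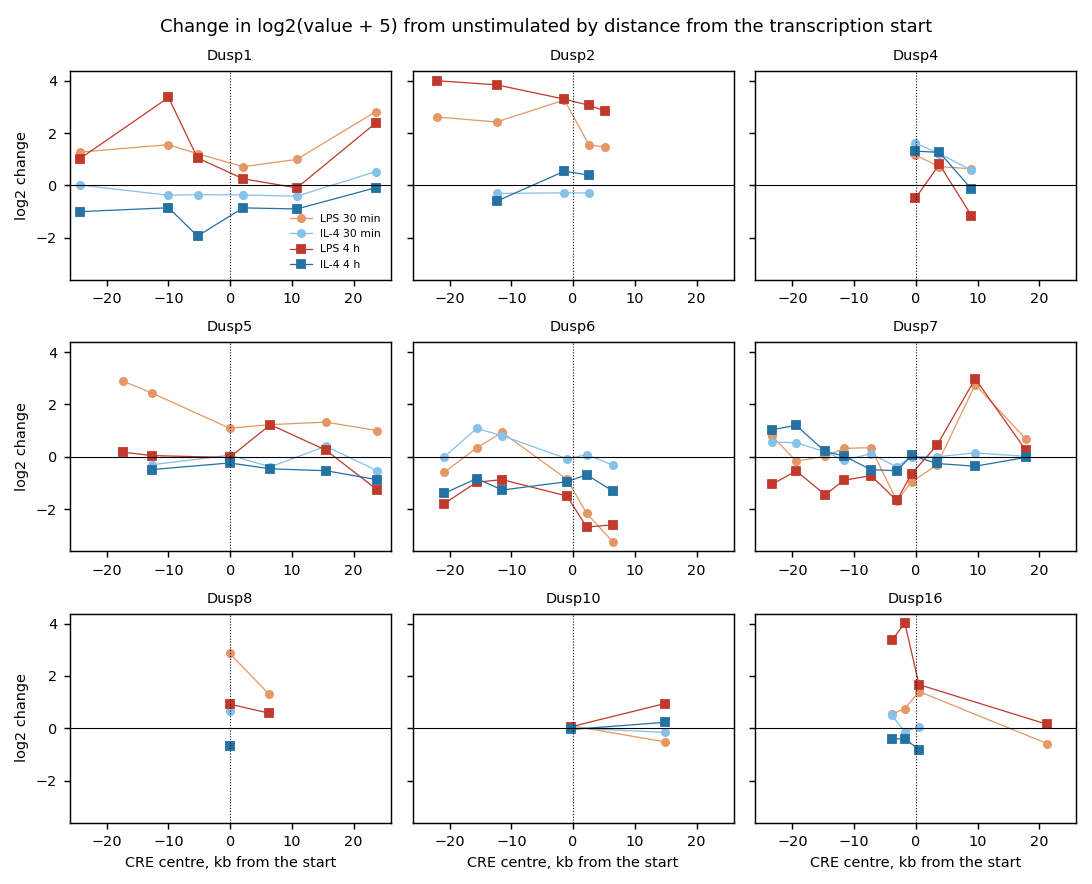
Log2 difference between LPS or IL-4 and unstimulated cells (vertical axis) against distance of each CRE from the start in kb (horizontal axis), for 9 genes, at 30 min and 4 h in DMSO-treated macrophages. At 30 min the Dusp5 CREs lie between 1.00 and 2.89 after LPS, and at 4 h they spread from -1.26 to 1.23, while Dusp6-1.0, Dusp6+2.2 and Dusp6+6.4 stay below 0 after LPS at both times.

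IL-4, which signals mainly through JAK and STAT6 and not through Toll-like receptors, changed fewer member CREs. Acetylation fell at Dusp1 and Dusp6 CREs and rose at Dusp4, and 2 far upstream CREs of Dusp7 rose while 1 nearer its start fell. Of 39 CREs tested, 13 changed, 5 higher and 8 lower, against 24.7% of all CREs (13.6% higher and 11.0% lower), so that the share of members was 33.3%. The count rested on the UT libraries, as 7 were called without replicate 2 of UT. The median of the largest absolute log2 difference was 0.69 over the members and 0.68 over all CREs. Among promoters, 1 of 9 members changed, against 6.23% of all promoter CREs.

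That promoter was Dusp4-0.1, at which the UT values of 156 and 186 became 544 and 527 at 30 min, 590 and 538 at 1 h, 577 and 517 at 2 h and 436 and 422 at 4 h. Every IL-4 library was above UT, and log2 differences were 1.62, 1.70, 1.65 and 1.31 (SE 0.11, adjusted p = 8.4e-20). Dusp4+3.8 rose by 1.26 at 4 h (SE 0.28). Dusp7-19.4 and Dusp7-23.3, both in an intron of Poc1a, rose by 1.20 and 1.04 at 4 h, and the first of these was lost without either UT replicate (adjusted p 0.011). Dusp7-3.1 fell by 1.06 at 2 h (SE 0.18).

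Losses deepened up to 2 h at Dusp1. Dusp1-5.3 went from 558 and 590 in UT to 445 and 449 at 30 min, 239 and 265 at 1 h, 162 and 156 at 2 h and 147 and 145 at 4 h, so that all IL-4 libraries were below UT and the log2 difference reached -1.94 (SE 0.12, adjusted p = 5.9e-21). The CRE over the gene, Dusp1+2.1, declined from 1027 and 1046 to 568 and 567 at 4 h, with a largest log2 difference of -0.96 at 2 h (SE 0.096) that was just below the required size. Dusp1+10.8 fell by 1.03, Dusp1-10.0 fell by 1.20 (SE 0.30) and Dusp1-24.4 fell by 1.01. The first pair was lowest at 2 h, and Dusp1-24.4, like Dusp1-5.3, at 4 h.

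At the Dusp6 promoter, most of the loss after IL-4 came late. Dusp6-1.0 had 944 and 1002 at 30 min, 890 and 892 at 1 h and 879 and 744 at 2 h, next to 955 and 1096 in UT, and dropped to 541 and 511 at 4 h, a log2 difference of -0.95 (SE 0.086) just below the required size. Dusp6+6.4 fell from 408 and 375 to 155 and 155 at 4 h, a log2 difference of -1.31 (SE 0.13). Dusp6-20.9 fell by 1.40 and Dusp6-11.5 fell by 1.27 at 4 h, while Dusp6-15.6 rose by 1.08 at 30 min (SE 0.24) before it declined. No CRE of Dusp2, Dusp5, Dusp8, Dusp10 or Dusp16 changed after IL-4 by the rule in limma. An unadjusted F-test p under 0.05 was common, with 5746 of 10033 promoter CREs over all genes. Among the tested CREs of these members it was found for 2 of 3, 2 of 5, 1 of 1, 1 of 2 and 2 of 3. Dusp2-1.4, for example, was at 135 and 150 at 4 h, above both UT libraries, a log2 difference of 0.54 (SE 0.17). Both time courses share the UT libraries, and of the CREs called in both, 2 rose in both, 3 fell in both, 3 rose with LPS but fell with IL-4, and 2 did the opposite. The same split over all CREs is not given here, so this mix is not shown to be particular to the members.

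Set against each other at the same times, LPS and IL-4 differed at 34 of 42 member CREs tested, 22 higher and 12 lower after LPS, against 58.4% of all CREs (29.2% higher and 29.2% lower). The median of the largest absolute log2 difference was 2.11 over the members and 1.23 over all CREs. Acetylation was higher after LPS at all 6 CREs of Dusp1, all 6 of Dusp5, the 5 tested ones of Dusp2, 3 of Dusp16 and the promoter of Dusp8, and lower at all 3 CREs of Dusp4, 4 of Dusp6 and 5 of Dusp7. The largest differences on the higher side were 4.94 at Dusp2-22.1 (2 h, SE 0.30), 4.55 at Dusp2-12.4 (2 h, SE 0.17), 4.42 at Dusp16-1.8 (4 h, SE 0.29) and 4.33 at Dusp1-10.0 (2 h, SE 0.22). On the lower side they were -3.51 at Dusp6+6.4 (1 h, SE 0.21), -2.83 at Dusp6+2.2 (1 h, SE 0.16) and -2.37 at Dusp4-0.1 (2 h, SE 0.14). Dusp7+9.6, higher by 3.35 at 4 h, ran against the 5 called Dusp7 CREs that were lower, and neither CRE of Dusp10 differed.

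Over the 18 DMSO libraries, the promoters most alike to a member promoter were ranked by Pearson correlation of log2 values among 11138 promoter CREs, as a description of profiles that share the same libraries. Dusp2 was closest to Ube2f, Sod2 and Stx11 (r = 0.99 for each) and Dusp16 to Helz2 (0.99), Gch1 (0.98) and Cxcl10 (0.97). For Dusp1 the closest was Rab32 (0.96), for Dusp4 Dclre1b (0.97), for Dusp5 Sra1 (0.94), for Dusp6 Snx24 (0.96), for Dusp7 Ap2a2 (0.97) and for Dusp8 Etf1 (0.93). Dusp10, whose promoter moved least after LPS, had the weakest nearest profile, Plekhm2 at 0.82.

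Other genes of the pathway were examined at their promoter CREs. Of 8 tested promoters of further dual-specificity phosphatases, 3 changed after LPS, beside 29.2% of all promoter CREs, with Dusp28 higher by 2.67 and Dusp3 and Dusp18 lower (log2 differences of -1.76 and -1.12), and none changed after IL-4, when 5 of the 8 had an unadjusted p under 0.05 (limma). Of 11 ERK feedback and output genes, 6 changed after LPS, beside the same 29.2%. Spry1 and Phlda1 rose by 1.22 and 1.18, whereas the ERK cascade antagonists Spry2 (-1.58) and Spred2 (-1.15), the ETS factor Etv5 (-1.76) and the cyclin Ccnd1 (-2.01) fell. After IL-4, 5 of the 11 changed, beside 6.23% of all promoter CREs, with Spry1 and Epha2 higher (1.27 and 1.07) and Spry2, Spred1 and Spred2 lower (-1.64, -1.07 and -1.24). Of 23 MAPK cascade kinases, 7 changed after LPS, close to the 29.2% of all promoter CREs. The p38 isoform gene Mapk11 (2.39), Braf (2.02), Mapkapk2 (1.39) and Map2k1 (1.28) were higher. The p38 activator genes Map2k3 (-1.27) and Map2k6 (-1.58) and Map3k5 (-1.20) were lower. None changed after IL-4, when 9 of the 23 had an unadjusted p under 0.05 (limma). Over all promoter CREs, 5746 of 10033 had such a p after IL-4. The median of the largest log2 difference after LPS was -0.79 over the other phosphatases, 0.32 over the ERK genes and 0.33 over the kinases, beside 1.09 over the 9 member promoters and 0.20 over all promoter CREs.

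Whether the LPS response of the phosphatase genes persisted under the inhibitors was examined by taking, for each CKI, its log2 level averaged over the times minus its own UT level. These responses all rest on 1 or 2 UT libraries per CKI. At Dusp2-1.4 the response was 3.29 in DMSO, had a median of 2.15 over the 58 CKIs and ranged from 0.95 under Mubritinib to 3.67 under MK2461, above 0 in 58 of 58. At Dusp1-10.0 it was 2.79 in DMSO and 0.59 to 2.59 over the CKIs, with a median of 1.68. Responses were above 0 in 58 of 58 CKIs at Dusp2-22.1, Dusp2-12.4, Dusp2+2.6, Dusp7+9.6, Dusp16+0.5, Dusp16-1.8 and Dusp16-3.9 as well. Other promoters that were called higher in DMSO were less uniform. Of the 58 CKIs, 56 were above 0 at Dusp8-0.1, 39 at Dusp5-0.1 and only 15 at Dusp4-0.1. At Dusp1+2.1, not called in DMSO, 43 were above 0. How many of all CREs keep the same sign in all 58 is not given here.

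Losses at most Dusp6 CREs, but not all, held in every CKI. The response of Dusp6+6.4 was -3.30 in DMSO and ran from -3.09 under XL413 to -0.14 under Omipalisib, with a median of -2.05, below 0 in 58 of 58. Dusp6-1.0 (-1.45 in DMSO, median -1.22), Dusp6+2.2 (-2.57, median -1.81) and Dusp6-20.9 were also below 0 in all 58, and so were Dusp7-0.7, Dusp7-11.7 and Dusp7-14.7. In contrast, the response was above 0 in 9 CKIs at Dusp6-15.6 and in 10 at Dusp6-11.5. For IL-4, Dusp1+2.1, Dusp1-5.3 and Dusp1-24.4 were below 0 in 58 of 58, and Dusp4-0.1 was above 0 in 57, with 1.57 in DMSO, a median of 0.96 and a range from -0.37 under MK2206 to 2.40 under BMS911543. The median response over CKIs was closer to 0 than that of DMSO at each of these CREs whose DMSO response is given here. The contrast of CKI libraries was lower in most, and its part in this was not tested.

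**Figure D4:**
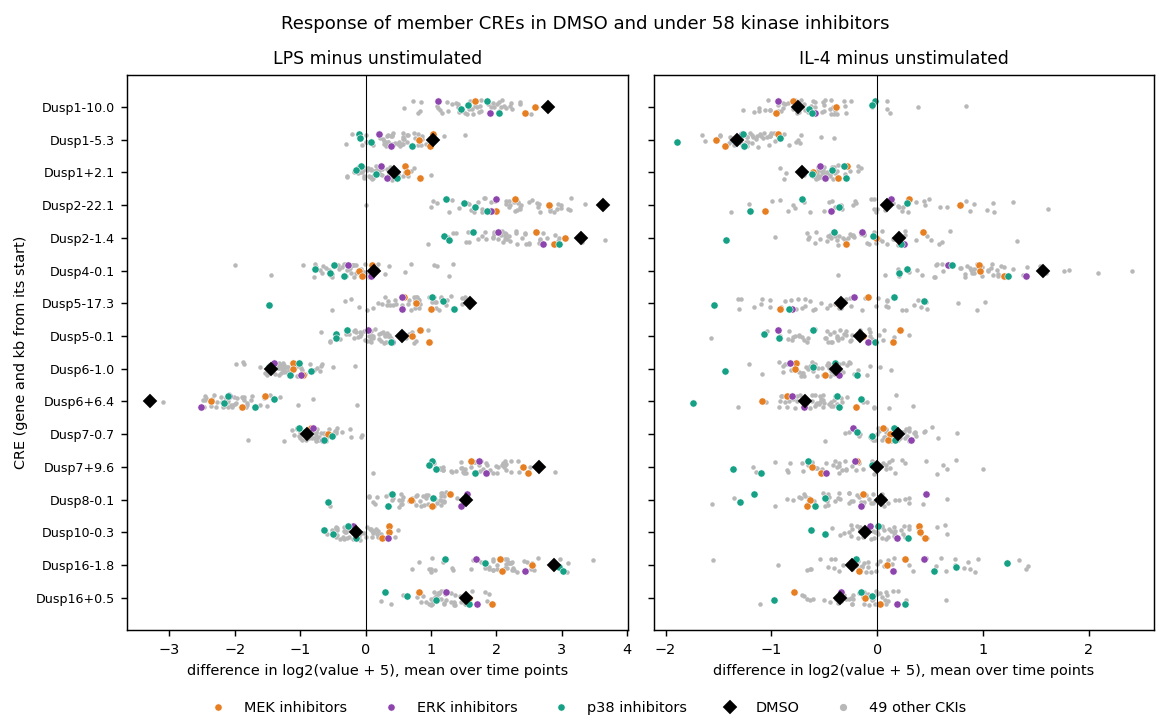
Response to LPS or IL-4 (log2 level over 4 times minus the unstimulated level of the same compound, horizontal axis) at 16 member CREs (rows); diamonds are DMSO, coloured points are MEK, ERK and p38 inhibitors and grey points are 49 other CKIs. At Dusp2-1.4 all LPS points lie between 0.95 and 3.67. At Dusp6+6.4 all LPS points of the CKIs lie between -3.09 and -0.14, with DMSO at -3.30.

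Against DMSO, averaged over UT and the 4 times, the 9 MEK, ERK and p38 inhibitors gave 153 calls among 432 pairs of member CRE and inhibitor in the LPS series (limma, adjusted p under 0.05 with a log2 difference beyond 0.5 in size), 127 higher and 26 lower. This was 35.4% of pairs, against 35.0% over all CREs, where 3.05% of pairs were lower. In the IL-4 series there were 179 calls (41.4%), 160 higher and 19 lower, against 36.7% over all CREs, where 2.61% were lower. Direction depended on scaling, since rescaling each library by its median ratio gave 145 calls with 106 lower in the LPS series and 179 with 94 lower in the IL-4 series. Members were called at about the rate of all CREs. The number of calls went with library contrast. Refametinib and Selumetinib, with a median contrast of 44.3 and 44.0 in the LPS series, gave 1 and 2 member calls with 0.940% and 1.27% of all CREs called, and the other 7 inhibitors, with 13.1 to 35.2, gave 17 to 31 member calls with 34.1% to 58.2% of all CREs called.

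Certain members were called alike under many of the 58 CKIs, which all share the DMSO libraries. In the LPS series, where 4.04% of all pairs of CRE and CKI were lower and 32.3% higher, the promoter CRE Dusp16+0.5 was lower than DMSO under 35 CKIs and higher under 0, and Dusp16-3.9 was lower under 28. Dusp1-24.4 was lower under 20, Dusp1+10.8 under 13, Dusp1-10.0 under 12 and Dusp1-5.3 under 10, none of them higher under any. Quantile normalisation, which forces all libraries to 1 distribution, left Dusp16-3.9 lower under 17, Dusp16+0.5 under 4, Dusp1-24.4 under 9 and Dusp1-10.0 under 5. Dusp6+6.4, nearly emptied by LPS in DMSO, was higher under 43, but under 2 after quantile normalisation. CREs with values near 0 in DMSO, such as Dusp8-2.8, were mostly called higher (50 CKIs, and 5 after quantile normalisation).

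In the IL-4 series, where 3.03% of all pairs were lower and 36.2% higher, some CREs of Dusp6 were lower than in DMSO under several CKIs. The intronic CRE Dusp6+2.2 was lower under 47 CKIs, Dusp6-1.0 under 19, Dusp6+6.4 under 10 and Dusp6-20.9 under 7, with none higher. After quantile normalisation these numbers were 19, 6, 7 and 9. Dusp4-0.1 was lower under 8 (4 after quantile normalisation), while Dusp2-12.4, at 42 to 63 in DMSO after IL-4, was higher under 57 (23 after quantile normalisation).

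MEK and ERK inhibitors were then set against the other 49 CKIs, with 1 value per compound, a comparison that does not use DMSO. No member CRE passed an adjusted p under 0.05 for the UT level, the LPS level, the IL-4 level or the LPS response, and 0% of all CREs did (limma, 5 against 49 compounds). The number of members with an unadjusted p under 0.05 was 0, 10, 4 and 7 of 48, beside 2.20%, 16.3%, 2.75% and 5.62% of all CREs. All 4 of the IL-4 members were Dusp6 CREs, and all 4 were lower under the inhibitors.

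At Dusp6+6.4 after IL-4, the mean log2 level was 7.46 under MEK and ERK inhibitors and 7.76 under the other CKIs (SD 0.23), a difference of -0.31 (SE 0.11, adjusted p = 0.99), and all 5 inhibitors lay below the median of the others. Pimasertib gave values of 240, 92, 134 and 77 at 30 min, 1 h, 2 h and 4 h, and Refametinib 191, 174, 122 and 126. Selumetinib gave 233, 245, 150 and 114. Pimasertib was the lowest of 58 CKIs and Refametinib the fifth, against DMSO values of 155 and 155 at 4 h. Low levels under Pimasertib were not particular to Dusp6. After IL-4 it ranked 3 of 58 from the lowest at Dusp4-0.1 and Dusp4+9.0 and 20 at Dusp4+3.8. Refametinib ranked 38 at Dusp4-0.1 and Dusp4+9.0. The median contrast in the IL-4 series was 20.5 for Pimasertib, 39.6 for Refametinib and 42.8 for Selumetinib, and its part was not tested. The ERK inhibitors were nearer the others, with 317, 343, 128 and 128 under GDC0994 and 282, 329, 169 and 132 under Ulixertinib. A run is a block of consecutive columns of the table and stands in for the batch the labels do not give. At 4 h, libraries of the other CKIs had 141 to 331 in the run of Pimasertib and GDC0994. They had 133 to 204 in that of Refametinib and Selumetinib and 95 to 256 in that of Ulixertinib, with Ulixertinib inside. At 1 h the other CKIs had 123 to 315 in the run of Pimasertib and GDC0994, with Pimasertib below and GDC0994 above. They had 239 to 301 in that of Refametinib and Selumetinib, with Refametinib below and Selumetinib inside. Ulixertinib lay inside the 237 to 349 of its run. Within runs the difference was -0.38 (SE 0.098, adjusted p = 0.81), and without Pimasertib it was -0.19.

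Dusp6-1.0 after IL-4 differed by -0.26 (SE 0.12, adjusted p = 0.99) with 4 of 5 inhibitors below the median of the others, by -0.31 within runs (SE 0.083, adjusted p = 0.81) and by -0.12 without Pimasertib. Under Pimasertib its values were 511, 261, 306 and 304, under Refametinib 827, 590, 388 and 434, and under Selumetinib 818, 627, 407 and 501. Under GDC0994 they were 687, 627, 308 and 393 and under Ulixertinib 943, 827, 408 and 386. Dusp6+2.2 and Dusp6-11.5 differed by -0.30 and -0.29 (adjusted p = 0.99 for both). None of these differences is a call, and the p38 inhibitor Talmapimod was as low. At 30 min, 1 h and 2 h it had 323, 338 and 289 at Dusp6-1.0 and 167, 106 and 164 at Dusp6+6.4. Talmapimod also ranked 2 of 58 from the lowest at Dusp4-0.1 and Dusp4+9.0 after IL-4, but 57 at Dusp4+3.8.

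After LPS, when Dusp6+6.4 was already low, it had values of 44 to 100 under the MEK and ERK inhibitors, above all 4 DMSO libraries at 1 h and 2 h for each. The other CKIs shared this, with medians per run of 61 to 92 at 1 h and 56 to 73.5 at 2 h. Dusp6-15.6 differed by -0.37 (SE 0.14, adjusted p = 0.29), with all 5 below the median of the others. Over the 48 members the difference was above 0 at 24 and below 0 at 24. Among promoters, Dusp8-0.1 differed by 0.28 (SE 0.13, limma adjusted p = 0.29), with 1 of the 5 inhibitors below the median of the others. Dusp2-1.4 differed by 0.27 (SE 0.12, adjusted p = 0.29), Dusp10-0.3 by 0.25 (SE 0.14, adjusted p = 0.34) and Dusp1+2.1 by 0.23 (SE 0.11, adjusted p = 0.30). At Dusp2-1.4, Dusp10-0.3 and Dusp1+2.1 none of the 5 lay below that median. Dusp8-9.9, near 0 in DMSO, differed by -0.72 (SE 0.27, adjusted p = 0.29), and the 3 CREs of Dusp4 by -0.23 to -0.05.

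**Figure D5:**
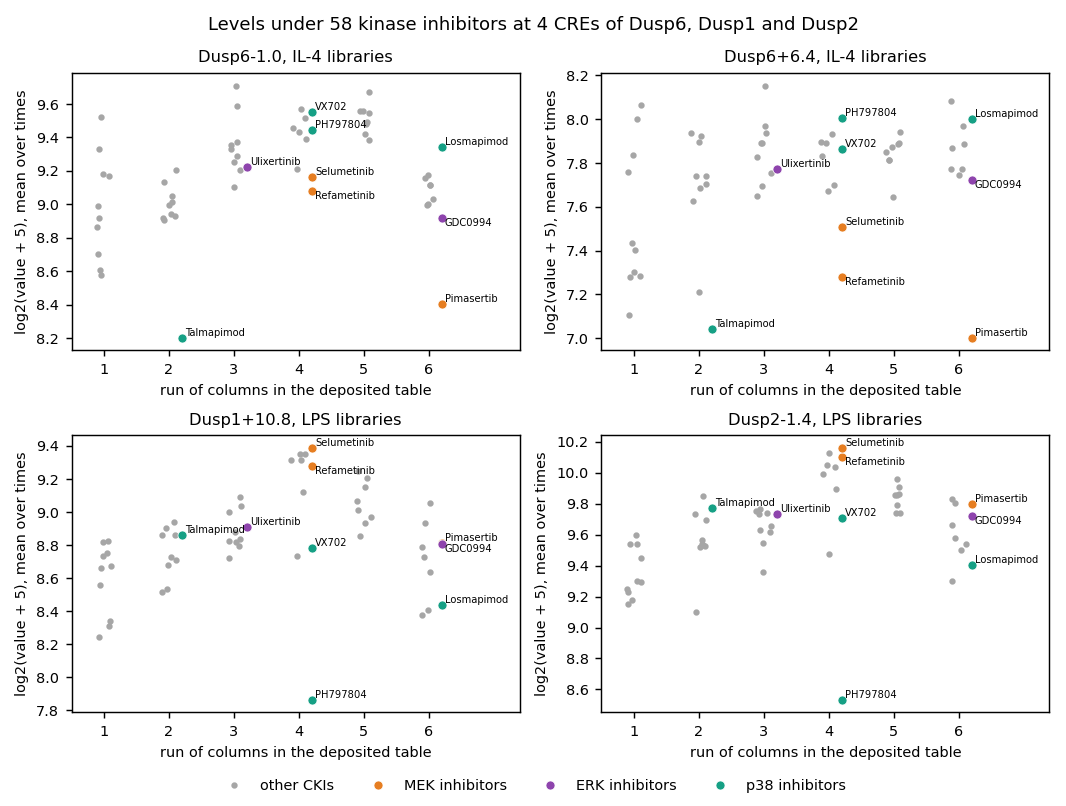
Log2 level of H3K27ac (vertical axis) under each of 58 CKIs, grouped by run in column order of the table (horizontal axis), at Dusp6-1.0 and Dusp6+6.4 after IL-4 and at Dusp1+10.8 and Dusp2-1.4 after LPS; MEK, ERK and p38 inhibitors are coloured and other CKIs grey. Pimasertib and Talmapimod (7.04) are lowest at Dusp6+6.4, and PH797804 is lowest at Dusp1+10.8 (7.86) and Dusp2-1.4 (8.53).

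No member CRE differed between the 4 p38 inhibitors and the 49 other CKIs at an adjusted p under 0.05 in any of the 4 measures, next to 0.00338% of all CREs for the UT level and 0% for the others. Members with an unadjusted p under 0.05 numbered 7 for the UT level, 4 for the LPS level, 0 for the IL-4 level and 3 for the LPS response, beside 17.1%, 5.05%, 0.784% and 9.41% of all CREs. At Dusp1+10.8 after LPS the difference was -0.36 (SE 0.14, adjusted p = 0.88) and -0.44 within runs (adjusted p = 0.21). Quantile normalisation made it -0.41 with an adjusted p of 0.045, among 33 CREs called in all.

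PH797804 carried much of this. Its values at Dusp1+10.8 were 235, 540, 169 and 124 at 30 min, 1 h, 2 h and 4 h, with 797 and 958 at 30 min in DMSO. Talmapimod gave 767, 411, 446 and 315, and Losmapimod 608, 461 and 185 at 30 min, 1 h and 4 h. VX702 gave 759 at 30 min, 284 and 390 at 1 h, 435 at 2 h and 514 at 4 h. Without PH797804 the difference was -0.15, and without the libraries in which 1 read was worth more than 10 units, among them PH797804 at 30 min and 4 h, it was -0.18. Dusp2-1.4 behaved alike, with 212, 609, 577 and 238 under PH797804, a difference of -0.28 (SE 0.14, adjusted p = 0.88) and one of -0.0013 without PH797804. Under VX702 and Talmapimod the Dusp2 promoter reached 1303 and 1059 at 2 h, near the 1070 and 1023 of DMSO.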

How the data were processed

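H3K27ac ChIP-seq was measured in 564 libraries. Per the labels and the methods of the study, the authors trimmed single-end reads, mapped them to mm10 with ShortStack (Bowtie and SAMtools are listed in the submitters' processing notes), counted reads around ATAC-seq summits and scaled libraries on invariant peaks. The deposited values are these normalised read counts, rounded to whole numbers, and were treated as a score, without count models. Groups came from treatment labels. The member genes, gene lists and tests were chosen with earlier results of these data known.

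CREs were joined to RefSeq starts within 25 kb. limma 3.58.1 (R 4.3.3) was fitted on log2(value + 5), which understates changes at low CREs, to all CREs with a mean of at least 10, with Benjamini-Hochberg adjustment over all of them. Time courses used a moderated F-test (adjusted p under 0.01, absolute log2 difference over 1), where the study used an impulse model with these thresholds. CKIs were set against DMSO with time and compound as factors (adjusted p under 0.05, absolute log2 difference over 0.5), and classes were compared with 1 time-adjusted value per compound. Named CREs were the promoter CREs (the highest where several overlap a start), the called CRE with the strongest change per gene after each stimulus and, in class comparisons, up to 10 called CREs; other CREs given with values were chosen after their values were seen. In the column order of the table, CKIs form 6 consecutive runs, used as a stand-in for batch. Reads per library were estimated from the spacing of low values. Scripts were tested on simulated data. Alternatives covered pseudocount, filter, scaling, thresholds, reference and left-out libraries. Python 3.11.15 and pandas 2.3.3 were used.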

Additional observations from a re-analysis of the deposited data

Results flagged for a closer look

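Compounds far from the others of their class were sought among the 5 MEK and ERK and the 4 p38 inhibitors, each with 1 time-adjusted level per stimulus, at the 9 promoter CREs and at Dusp6+6.4, Dusp6-15.6 and Dusp1+10.8. Of 72 such groups 4 held one, all among the p38 inhibitors. Chance alone flags about 1 in 20 groups of this size. At Dusp6-1.0 after IL-4, the Talmapimod level on the log2(value + 5) scale was 8.2, against 9.34 to 9.55 for Losmapimod, PH797804 and VX702. At Dusp6+6.4 after IL-4, Talmapimod was at 7.04 and the others at 7.86 to 8.01. At Dusp8-0.1 after IL-4, Talmapimod was at 5.27 and the others at 5.43 to 5.44. At Dusp10-0.3 after LPS, Losmapimod was at 7.97 and the others at 7.62 to 7.67. Talmapimod lacks an IL-4 4 h library and Losmapimod lacks 2 h libraries, and the part of these missing times was not tested.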

How the results depend on the processing

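The numbers of member CREs called were recomputed under other pseudocounts, filters, scalings, thresholds and references and with libraries left out. Of these recomputed numbers 186 lay within 1.5 times the main one and 8 did not. Numbers of the class tests are among them, and most could hardly move, since the main fits gave 0 calls. No difference of a named CRE in the time courses and class comparisons changed sign. This does not extend to differences of single CKIs from DMSO, whose direction turned with scaling as given below. After IL-4, 13 CREs became 5 with a pseudocount of 20, 22 with an absolute log2 difference over 0.5, and 7 to 13 with 1 library left out, with 7 without replicate 2 of UT. Against DMSO, the 153 calls of the 9 inhibitors in the LPS series became 33 (13 lower) after quantile normalisation and 21 (13 lower) with the mean of the 58 CKIs as reference. In the IL-4 series, 179 became 43 and 12. Median-ratio scaling gave totals of 145 and 179 but turned the balance of higher and lower calls, with 106 and 94 lower in place of 26 and 19. The p38 class had 0 CREs called in the LPS series and 1 after quantile normalisation (Dusp1+10.8, -0.41). Leaving out 1 replicate number of DMSO, or in the class tests 1 inhibitor, at a time gave 121 to 128 and 152 to 162 calls for the 9 inhibitors and 0 to 0 for each class, and leaving out 1 library gave 32 to 35 CREs after LPS and 33 to 35 for LPS against IL-4. A fit with the replicate number as a block gave 34, 13 and 34. The numbers pair no samples, since over 36 pairs of groups the correlation of same-numbered deviations ran from -0.087 to 0.066. Dusp4+3.8 fell short of the rule after LPS with a pseudocount of 20 (0.86) and after quantile normalisation (0.99), and Dusp7-19.4 did so after IL-4 with a pseudocount of 20 (0.91). Without the libraries whose file suffix is b the inhibitors gave 143 and 181 calls, and without libraries in which 1 read was worth over 10, an alternative chosen after seeing the data, 142 and 189. Differences at CREs near 0 were limited by depth.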
